A study of Mus musculus with 8 samples.

Results

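Accessible regions in gene deserts were the 2786 of 32720 merged regions whose strongest summit lay more than 100 kb from both ends of every protein-coding gene. Peaks of chromosomes 1 to 19 and X from 8 peak lists were merged where they overlapped by at least 1 bp. The summit of the peak with the highest fold enrichment placed each region. Between genes lay 1787 desert regions (64.1%, Wilson 95% interval 62.3% to 65.9%), and 999 lay inside a long gene. No measured change with time entered the choice.

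ATAC-seq, in which a transposase inserts adapters into open DNA, was run on mouse leukaemia cells that carry the MLL-AF9 fusion and a TetO-Klf4 construct, by which doxycycline switches on the zinc-finger transcription factor Klf4. GFP-positive cells were sorted from bone marrow of leukaemic mice, with 2 libraries each at 0h, 6h, 12h and 24h. All 4 groups share the fusion and the construct. Whether doxycycline was given to the 0h cells, and whether libraries of 1 time came from separate mice, is not stated in the labels, and 0h is treated simply as the earliest time. The strain is labelled C57BL/7, and the ages of the mice are not in the labels.

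Gene deserts are long stretches without coding genes, often next to genes for developmental regulators. Open chromatin there commonly marks distal enhancers, which can act on a promoter far away by looping, sites bound by the insulator protein CTCF, or promoters of long non-coding RNAs and microRNAs. Very long introns can house the same kinds of element.

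Some desert regions lay on starts of non-coding genes, and their sequences show what such open sites hold. Of the 2786 desert regions, 67 (2.40%) overlapped a promoter window of the RefSeq table, which runs from 250 bases before to 50 bases after an annotated start. A lncRNA window overlapped 53 of them, and a window at an additional start of a protein-coding gene overlapped 14. Of these 67, 11 had a peak in all 8 libraries (16.4%), as had 9.53% of the other desert regions. The 8 windows below, from RefSeq on GRCm38.p6 (mm10), are lncRNA starts whose regions were called in all 8 libraries or that belong to clusters described later (Firre and Morrbid). They are examples, and not every start that meets this description is printed. Capitals mark matches on either strand to AGGAAGT (PU.1/ETS), TGTGGTT (RUNX), TTGCNNAA (C/EBP), TGANTCA (AP-1), AGGNGGC (a CTCF core), GGGTGTG (KLF) or GGGCGGG (GC box).
LOC115490388, chr6:3182866-3183165, plus strand: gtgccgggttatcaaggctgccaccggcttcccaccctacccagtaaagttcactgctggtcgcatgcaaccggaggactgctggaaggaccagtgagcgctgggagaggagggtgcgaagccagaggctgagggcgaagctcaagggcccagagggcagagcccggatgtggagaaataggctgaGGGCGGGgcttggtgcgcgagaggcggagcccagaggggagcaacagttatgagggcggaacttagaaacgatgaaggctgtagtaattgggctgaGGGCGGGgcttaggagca
Gm26901, chr1:7398047-7398346, minus strand: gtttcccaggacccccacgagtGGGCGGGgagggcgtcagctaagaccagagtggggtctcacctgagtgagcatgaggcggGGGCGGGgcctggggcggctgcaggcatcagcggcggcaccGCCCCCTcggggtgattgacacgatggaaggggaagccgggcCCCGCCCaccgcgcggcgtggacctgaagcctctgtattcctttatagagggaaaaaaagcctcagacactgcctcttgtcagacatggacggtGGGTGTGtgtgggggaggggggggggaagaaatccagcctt
Gm45805, chr8:126758304-126758603, minus strand: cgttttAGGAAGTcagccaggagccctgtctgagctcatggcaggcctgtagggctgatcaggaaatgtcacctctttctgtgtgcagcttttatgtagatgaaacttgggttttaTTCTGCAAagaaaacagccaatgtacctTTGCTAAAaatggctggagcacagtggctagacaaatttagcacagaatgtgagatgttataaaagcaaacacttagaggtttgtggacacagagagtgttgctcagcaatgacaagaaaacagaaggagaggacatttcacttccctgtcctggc
Gm30284, chr17:86444938-86445237, minus strand: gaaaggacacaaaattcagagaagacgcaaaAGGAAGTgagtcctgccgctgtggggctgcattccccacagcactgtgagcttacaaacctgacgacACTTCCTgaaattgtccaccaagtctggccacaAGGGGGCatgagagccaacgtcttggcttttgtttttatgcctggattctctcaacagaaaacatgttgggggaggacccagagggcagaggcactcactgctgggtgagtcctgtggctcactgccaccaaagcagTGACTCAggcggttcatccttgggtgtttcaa
Kcnq1ot1, chr7:143296498-143296797, minus strand: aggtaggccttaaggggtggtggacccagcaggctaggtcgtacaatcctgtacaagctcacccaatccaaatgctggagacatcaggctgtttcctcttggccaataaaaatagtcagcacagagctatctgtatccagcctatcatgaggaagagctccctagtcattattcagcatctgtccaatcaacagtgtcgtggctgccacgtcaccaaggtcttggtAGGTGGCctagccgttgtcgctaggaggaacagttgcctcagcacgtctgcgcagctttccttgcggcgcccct
Dubr, chr16:50732724-50733023, minus strand: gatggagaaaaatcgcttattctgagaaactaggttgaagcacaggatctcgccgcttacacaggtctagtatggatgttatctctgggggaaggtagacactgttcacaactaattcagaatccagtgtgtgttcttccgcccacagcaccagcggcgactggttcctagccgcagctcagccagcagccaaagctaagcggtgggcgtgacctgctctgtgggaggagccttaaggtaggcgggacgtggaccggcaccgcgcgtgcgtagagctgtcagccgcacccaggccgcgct
Firre, chrX:50635272-50635571, minus strand: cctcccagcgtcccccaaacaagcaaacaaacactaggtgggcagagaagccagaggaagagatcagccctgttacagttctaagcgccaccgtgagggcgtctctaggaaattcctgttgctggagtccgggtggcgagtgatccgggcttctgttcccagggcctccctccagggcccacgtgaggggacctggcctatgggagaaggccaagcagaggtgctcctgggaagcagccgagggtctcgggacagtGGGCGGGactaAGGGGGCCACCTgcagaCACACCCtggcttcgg
Morrbid, chr2:128429302-128429601, minus strand: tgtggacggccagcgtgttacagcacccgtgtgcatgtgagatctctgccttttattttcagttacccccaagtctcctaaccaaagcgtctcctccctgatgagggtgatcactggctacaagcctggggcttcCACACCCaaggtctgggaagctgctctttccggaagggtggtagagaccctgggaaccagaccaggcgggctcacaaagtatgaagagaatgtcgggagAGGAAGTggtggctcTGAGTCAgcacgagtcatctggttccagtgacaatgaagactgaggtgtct
In Firre, 2 CTCF core matches on opposite strands overlap in 1 run of capitals. Gm26901 holds 3 GC boxes in a window of 65.7% G and C, whereas Gm45805 holds 2 C/EBP matches and 1 ETS match at 44.7%. The region at Gm45805 ends at position 126758321 and covers only the last bases printed. The 3 marked matches of Gm45805 lie outside that region. Gm30284 carries 2 ETS matches and 1 AP-1 match, and Morrbid 1 of each. LOC115490388 holds 2 GC boxes, and Dubr holds no match at 57.3% G and C.

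Gm26901, a lncRNA between Pcmtd1 and Sntg1 and 224 kb from the nearer gene end, had a fold enrichment of 11.6 and 9.69 in the 0h pair, 10.8 and 10.4 in the 6h pair, 11.4 and 10.1 in the 12h pair, and 9.08 and 11.4 in the 24h pair. Fold enrichment is the authors' ratio of pile-up to local background at the summit, which depends on depth, so it is used to rank peaks within a list and not to compare libraries. Kcnq1ot1, the imprinted antisense lncRNA inside Kcnq1, had a region called in all 8 libraries with folds of 7.71 to 12.5. Gm45805, between Irf2bp2 and Tomm20, ranged over 8.56 to 10.8 in all 8. By contrast, the Firre start was called in 5 libraries, at folds of 6.21 to 8.54, and the Morrbid start in 3, at 4.43 to 6.32. The region of LOC115490388, 189 kb from Samd9l, was called in all 8 at 11.8 to 14.2. Dubr, a lncRNA between Ccdc54 and Cblb, was also called in all 8, at 6.36 to 13.8.

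Motif shares are given with those of all 32619 promoter windows and of the 11574 lncRNA windows of the same length, without a test. The 75 desert windows overlapped a desert region, some only in part. The RUNX letters were in 18.7% of these windows, against 5.29% of all windows and 6.30% of lncRNA windows. None of the 12 windows under desert regions called in all 8 libraries held them. The ETS letters were in 17.3% of the desert windows, 9.38% of all and 9.88% of lncRNA windows, and the AP-1 letters in 16.0%, 7.85% and 9.31%. The C/EBP letters were in 14.7%, 10.9% and 11.9%, the KLF letters in 12.0%, 8.0% and 7.84%, and the CTCF core in 37.3%, 29.4% and 21.5%. The GC box was in 17.3% of the desert windows, 25.7% of all windows and 10.3% of lncRNA windows. Windows over the desert regions had a median G and C content of 51.0%, against 53.0% in all windows and 48.3% in lncRNA windows.

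Hairpins of 23 microRNAs lay within 10 kb of a desert summit, beside 22 desert regions. The Mir29a and Mir29b-1 pair and the Mir221 and Mir222 pair are shown, with the seed (bases 2 to 8) in capitals. Each pair shares 1 seed.
mmu-miR-29a-3p, chr6:31062673-31062694, minus strand: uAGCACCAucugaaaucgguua
mmu-miR-29b-3p, chr6:31063025-31063047, minus strand: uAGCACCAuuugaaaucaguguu
mmu-miR-221-3p, chrX:19146307-19146329, minus strand: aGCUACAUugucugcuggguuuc
mmu-miR-222-3p, chrX:19146901-19146923, minus strand: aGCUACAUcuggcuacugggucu
Beside the Mir29a and Mir29b-1 hairpins, in the gap between Klf14 and Mkln1, the region chr6:31065509-31065737 was called in both 12h libraries, at folds of 6.48 and 5.79, and in no other. A neighbouring region, chr6:31065844-31066536, was called in the first 0h library, at 5.95. Mir221 and Mir222, whose products are known to repress Kit, lay 3.45 and 4.05 kb from a region that 1 library called, the first 0h library, at 4.38. Mir3092, inside Fndc3b, lay 196 bp from the summit of a region called in all 8 libraries at folds of 7.29 to 11.5.

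The 8 lists differed in length and depth, and the 0h pair most. The lists contained 21756 and 15638 peaks in the 0h pair, 17324 and 18068 in the 6h pair, 21895 and 19722 in the 12h pair, and 15104 and 14822 in the 24h pair. Recovered from fold and p-value, the local background was 2.67 tags per kb in the first 0h library and 1.5 in the second, the extremes of all 8. At 24h it was 2.30 and 2.37, within the range of 2.23 to 2.63 at 6h and 12h. A desert peak had a median pile-up of 7 tags in the second 0h library and of 10 or 11 in the others. Of 12 myeloid leukaemia markers, 7 or 8 had a peak in or within 1 kb of the gene in every library, while Mpo, Elane and Csf3r had none in any. B lineage markers had peaks at 1 to 3 of 6 genes, T lineage markers at 2 to 4 of 6, erythroid markers at 1 of 6 and stromal or endothelial markers at 0 to 2 of 6. Cd3e and Gata1 had no peak in any library. Comparisons were therefore also made on lists of equal length, the 14822 strongest peaks of each library by −log10 p.

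Accessible regions thinned out steadily with distance. Within 1 kb of a gene end there were 128 regions per Mb, from 1 to 10 kb 16.7, from 10 to 50 kb 12.4, and from 50 to 100 kb 8.0. Beyond 100 kb the density was 2.98 per Mb of desert, over 921 Mb, against 12.7 per Mb for the other distal regions (over 1 kb and up to 100 kb), a ratio of 0.234. It fell further inside the desert, to 5.05 per Mb at 100 to 200 kb, 2.20 at 200 to 500 kb and 1.2 beyond 500 kb. At every distance over 1 kb, territory inside genes held more regions per Mb than territory between genes, for example 6.52 and 4.27 per Mb at 100 to 200 kb. These densities leave out 43 desert regions that lay before the first or after the last gene of a chromosome.

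**Figure D1:**
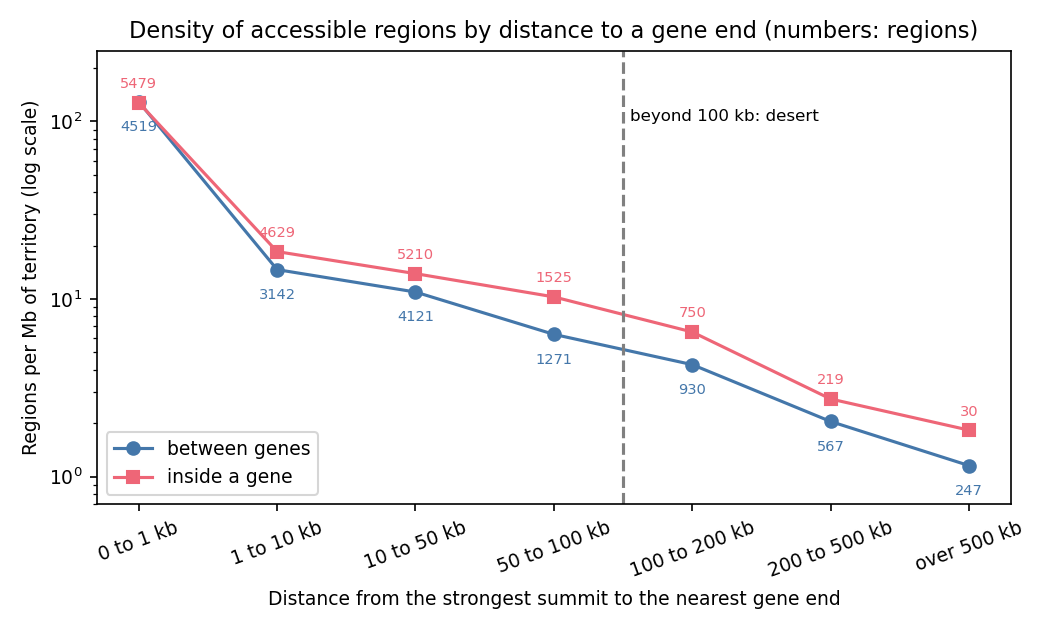
Accessible regions per Mb of territory (log axis) against the distance from the strongest summit to the nearest gene end, between genes (circles) and inside a gene (squares), with the number of regions at each point. Density falls from 128 per Mb within 1 kb to 1.2 per Mb beyond 500 kb over both kinds of territory.

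The median desert region lay 172 kb from the nearest gene end, 191 kb for those between genes and 150 kb for those inside one. Beyond 200 kb lay 1090 regions, beyond 500 kb 277, and beyond 1000 kb 67. The farthest was chr14:82220832-82221144, 2198 kb from Olfm4, which encodes the secreted glycoprotein olfactomedin 4, and 2223 kb from Pcdh17, a protocadherin. It had a peak in both 0h libraries, at folds of 5.35 and 5.05, and in the first 12h library, at 6.56, and none at 6h or 24h. Just beyond the 100 kb limit were a region inside Cdh13, a cadherin gene, at 100.032 kb, called in 1 library at 4.24, and one inside Ldlrad4 at 100.076 kb, called in all 8 at 7.68 to 10.1. Just within it were one inside Abcc4, a drug transporter gene, at 99.979 kb, called in 4 libraries at 4.32 to 7.05, and one inside Erg, an ETS factor gene, at 99.974 kb, called in 1 at 3.54.

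Most desert regions were called in few libraries. A single library called 1054 (37.8%, interval 36.0% to 39.6%) and all 8 called 270 (9.69%, 8.65% to 10.8%). Of the 19935 other distal regions, 35.7% were called in 1 library and 13.9% in all 8 (13.4% to 14.4%), and of the 9999 regions at gene ends 61.3% were called in all 8. The share called in all 8 was 10.0% for desert regions between genes and 9.11% for those inside a gene, with overlapping intervals. Intervals cover counting error only, and regions of 1 gap are not independent.

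**Figure D2:**
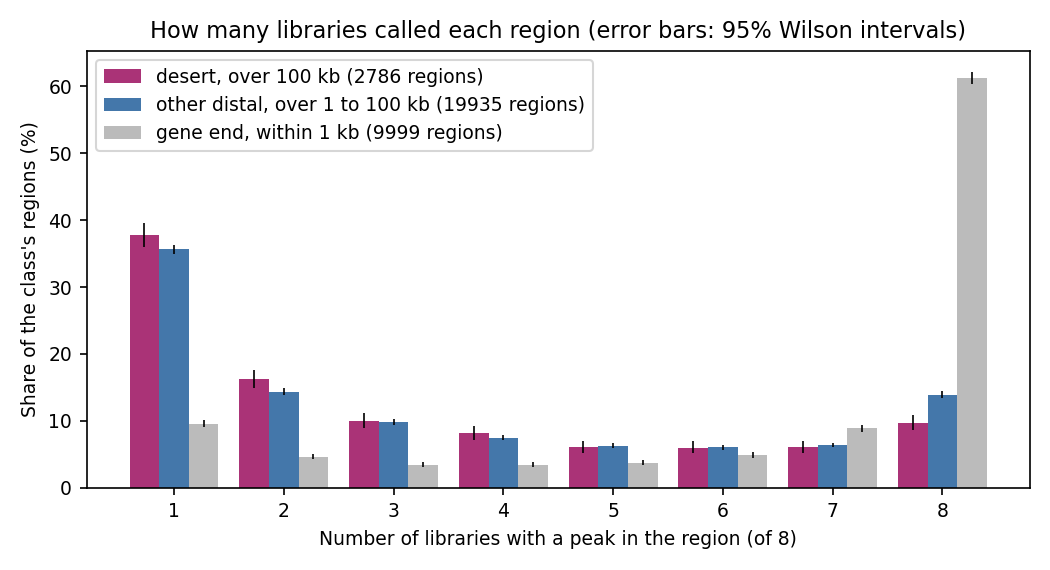
Share of the regions of each class (vertical axis, %) by the number of libraries with a peak there (1 to 8), for desert, other distal and gene-end regions, with 95% Wilson intervals. Desert regions have the lowest bar at 8 libraries (9.69%), and gene-end regions the highest (61.3%).

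Within each library, desert peaks were narrower, had a lower median −log10 p and were less often matched than other distal peaks, while median fold did not differ past the threshold. Median width was 348 and 208 bp in the 0h pair, 261 and 267 in the 6h pair, 298 and 292 in the 12h pair, and 265 and 271 in the 24h pair in desert peaks. In other distal peaks it was 378 and 225, 290 and 291, 320 and 322, and 291 and 300 bp at the same times. The difference averaged −25.9 ± 4.6 bp (SD, n = 8 libraries), below 0 in 8 of 8 libraries, with an adjusted exact sign-flip p of 0.013, two-sided, over 5 measures. The raw p of 0.0078 is the smallest that 8 libraries can give. Median −log10 p was lower in desert peaks, with a mean difference of −0.51 ± 0.22 (SD; 8 of 8 libraries, adjusted exact p = 0.013). Desert peaks had a match in the other library of their time in 42.9% and 70.3% of cases in the 0h pair, 66% and 60.0% in the 6h pair, 60.5% and 71.3% in the 12h pair, and 57.7% and 60.5% in the 24h pair. Other distal peaks had one in 46.9% and 75.4%, 66.8% and 63.2%, 63.9% and 74.9%, and 65.2% and 68.6% at the same times. A match was thus less frequent for desert peaks, with a mean difference of −4.46 ± 2.38 percentage points (SD, n = 8; 8 of 8, adjusted exact p = 0.013). In each library the share of desert regions called was compared with that of other distal regions, and was lower in 7 of 8, the first 0h library being the exception, with a mean difference of −3.59 points (adjusted exact p = 0.020). The 2 libraries of a time are matched to each other, so these 8 values are not fully independent. Median fold was lower in 6 of 8 libraries, with a mean difference of −0.14 ± 0.16 (SD; adjusted exact p = 0.055), and this difference passed the threshold under some alternatives given below.

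The desert share of peaks was lowest at 24h. As deposited, desert peaks made up 7.35% and 6.29% of the list at 0h, 5.87% and 6.21% in the 6h pair, 6.83% and 6.43% in the 12h pair, and 4.92% and 4.78% in the 24h pair. Both 24h libraries lay below the other 6. In numbers these were 1598 and 983 peaks in the 0h pair, 1017 and 1122 in the 6h pair, 1495 and 1269 in the 12h pair, and 743 and 709 in the 24h pair. The share fell with hours, at r = −0.80 over 8 libraries (exact permutation p = 0.020, adjusted over 3 measures 0.061; Spearman rho −0.59, p = 0.15), which does not pass 0.05 after adjustment. Without the 24h libraries r was −0.16 over 6 libraries (exact p = 0.80), so the relation as deposited rests on 24h. In bulk libraries, fewer cells with a site open and less opening per cell cannot be told apart.

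At equal list length the decline ran through all times. The desert share was 5.67% and 6.23% in the 0h pair, 5.50% and 5.51% in the 6h pair, 5.37% and 5.37% in the 12h pair, and 4.86% and 4.78% in the 24h pair. Pairs of different times did not overlap, and means were 5.95%, 5.50%, 5.37% and 4.82% in order of time. Pearson's r was −0.93 (exact p = 0.00040, adjusted 0.00060) and Spearman's rho −0.98 (exact p = 0.00079). Without 24h, r was −0.80 over 6 libraries (exact p = 0.022). The 24h mean minus the 0h mean was −1.13 points, and 2 against 2 libraries allow no exact p under 0.33.

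Peaks at gene ends made up more of the shorter lists, so the desert share was also taken among peaks more than 1 kb from a gene end, a measure chosen after the values had been seen. It was 12.3% and 11.9% in the 0h pair, 11.0% and 11.5% in the 6h pair, 11.4% and 11.3% in the 12h pair, and 10.1% and 10.1% in the 24h pair. The share fell with hours at r = −0.94 (exact p = 0.0016, adjusted over 4 measures 0.0063; rho −0.88, exact p = 0.010). Without 24h, r was −0.76 over 6 libraries (exact p = 0.089). At equal length r was −0.98 over all 8 libraries (exact p = 0.00040) and −0.95 without 24h (exact p = 0.022). Gene-end peaks made up 51.1% and 52.6% of the list at 24h, against 40.2% and 47.3% at 0h, as deposited. At equal length they made up 51.6% and 52.6% at 24h, against 51.5% and 48.6% at 0h. Their part in the desert share of all peaks was not tested.

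**Figure D3:**
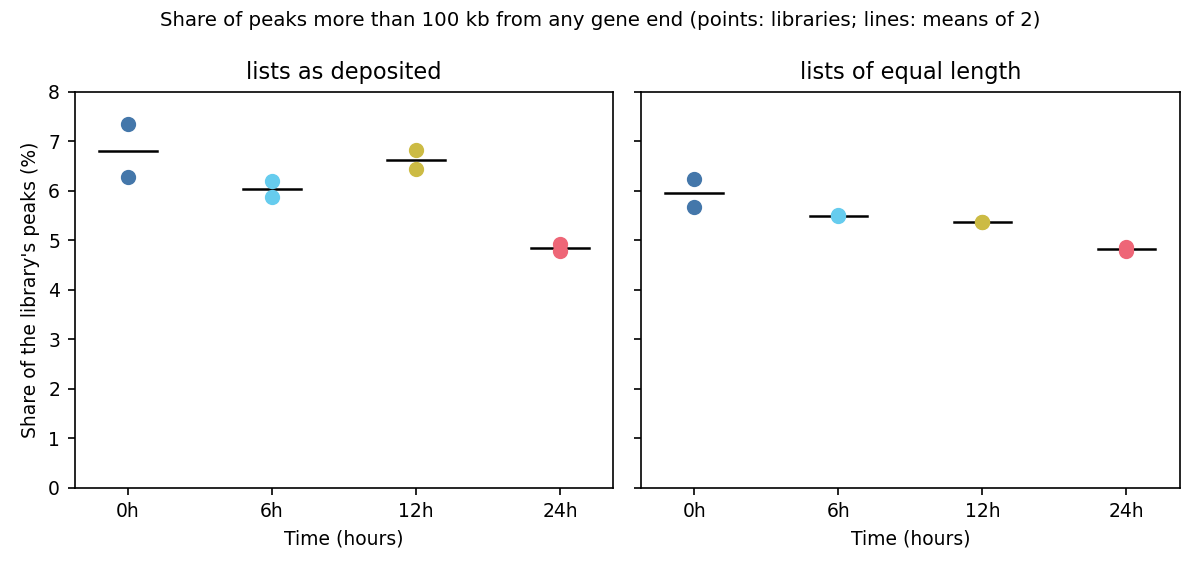
Share of each library's peaks that lay more than 100 kb from any gene end (vertical axis, %) by time, for lists as deposited (left) and lists of equal length (right). Points are libraries and lines are means of 2. The 24h libraries sit at 4.78% to 4.92% in both panels, below all others.

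The decline at 24h held at each desert distance. At equal length, the bin of 100 to 200 kb held 2.99% and 3.06% of peaks at 24h, against 3.36% and 3.78% at 0h. That of 200 to 500 kb held 1.46% and 1.38% in the 24h pair, against 1.75% and 1.84% in the 0h pair. Beyond 500 kb the values were 0.405% and 0.344% in the 24h pair and 0.553% and 0.614% in the 0h pair. In none of these bins did the 24h and 0h libraries overlap. The bin of 50 to 100 kb, just short of the desert, held 5.56% and 5.53% in the 24h pair and 5.75% and 6.00% in the 0h pair, also without overlap. That of 10 to 50 kb held 19.3% and 18.6% in the 24h pair and 19.2% and 20.5% in the 0h pair, which overlap. The number of desert peaks as deposited (r = −0.60, exact p = 0.12) and the share of desert peaks inside a gene (r = −0.07, exact p = 0.87) showed no trend past the threshold. That share stayed between 33.1% and 35.5% in every library.

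A region counted as gained where a later time had a peak in both libraries and 0h in neither, and as lost in the reverse case. At 24h, 22 desert regions were gained (0.790%) and 200 lost (7.18%), against 1.12% gained and 4.43% lost over all regions. Other distal regions were gained in 1.36% and lost in 5.34%. At 6h, 59 desert regions were gained (2.12%, all regions 1.85%) and 94 lost (3.37%, all regions 2.34%). At 12h, 131 were gained (4.70%, all regions 4.03%) and 67 lost (2.40%, all regions 1.45%). Other distal regions were gained in 2.19% at 6h and 4.99% at 12h, both above the desert shares. They were lost in 2.91% and 1.76%, both below the desert shares. The 24h lists are the shortest and the 12h lists among the longest, so these counts move with list length. On lists of equal length, with regions merged anew, gains and losses were 62 and 83 of 1939 desert regions at 6h (3.20% and 4.28%), with gains in 2.36% and losses in 2.35% of all 24572 regions. At 12h they were 68 and 79 (3.51% and 4.07%; all regions 2.69% and 2.31%). At 24h they were 39 and 106 (2.01% and 5.47%, with all regions at 2.92% and 3.01%). Other distal regions at equal length were gained in 2.94%, 3.48% and 3.52% at 6h, 12h and 24h. They were lost in 3.03%, 2.88% and 3.89%. The counts at 24h depended on every library they used. Losses became 428 without the first 0h library and 864 without the second, and gains 104, 37, 107 and 127 without the first and second 0h and the first and second 24h library, since 1 library then stands for its time.

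Few desert regions followed a strict order in time. Both 0h, both 6h and both 12h libraries, and neither 24h library, called 38 desert regions (1.36%, against 0.706% of all regions). Both 0h libraries and none of the 6 later ones called 36 (1.29%, against 0.611%), and all 6 later libraries but neither at 0h called 3 (0.108%, against 0.269%). The 3 lay inside Sox5, a SoxD transcription factor gene, inside Kcnq3, a potassium channel gene, and between Kcnrg and Dleu7. Both 12h libraries and no other called 51 desert regions (1.83%, against 1.23% of all regions), and both 24h libraries and no other called 2 (0.0718%, against 0.0886%).

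Of the 38 regions open at 0h, 6h and 12h and not called at 24h, those beside known blood or leukaemia genes were picked out after their values had been seen. A pair lay between Prl5a1 and Sox4, a SoxC factor gene active in leukaemia, at chr13:28543430-28543816, with folds of 5.21 to 11.3 in the 6 libraries, and at chr13:28556547-28557514, with 4.80 to 6.94. The gap from Prl5a1 to Sox4 held 7 desert regions in all, each inside a lncRNA gene. Called regions there numbered 2 and 4 in the 0h pair, 2 and 2 in the 6h pair, 5 and 4 in the 12h pair, and 0 and 2 in the 24h pair. At equal length they numbered 0 and 3, 1 and 2, 1 and 1, and 0 and 2, so 24h and 0h overlapped. One lay 132 kb from Bcl6, a repressor gene of germinal centres, at chr16:24120925-24121209, with 5.74 to 8.85. Another lay between Mn1, a co-activator gene rearranged in myeloid leukaemia, and Cryba4, at chr5:111810197-111810985, with 4.59 to 8.86. One lay between Nmbr and Cited2, at chr10:17522065-17522423, with 4.21 to 6.69. The others included sites inside Jazf1 (6.36 to 9.66), Ghr, the growth hormone receptor gene (4.66 to 10.1), and Ptprd (5.51 to 8.12), so the pattern also occurred far from blood genes.

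The regions lost at 24h with the highest percentiles of fold lay between genes. The region chr11:64801410-64801763, between Hs3st3a1, a heparan sulphate sulfotransferase gene, and Elac2, which encodes the tRNA 3′ processing enzyme, had folds of 13.1 and 9.55 in the 0h pair, 9.21 and 7.76 in the 6h pair, and 9.11 and 8.49 in the 12h pair, and no peak at 24h. A second, chr15:19675647-19676039, between the cadherin genes Cdh10 and Cdh12 and 660 kb from the nearer, had 8.39 and 11.3 in the 0h pair, 8.90 and 10.3 in the 6h pair, 10.7 and 6.62 in the 12h pair, and none at 24h. Both were open at all earlier times.
Other losses came sooner. The region chr8:128171227-128171597, 187 kb from Nrp1, a semaphorin and VEGF co-receptor gene, had folds of 9.94 and 10.2 at 0h and 7.78 in the first 6h library, and no later peak. The region chr12:64598138-64598360, between Fscb and Gm51965, had 10.0 and 9.26 at 0h and no peak in any of the 6 later libraries. It was among the 4 highest losses at all 3 times.

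Losses at 6h and 12h also took in a site inside Ppm1h, a protein phosphatase gene, at chr10:122815156-122815417, with 10.0 and 10.4 at 0h and a single later peak of 6.56 in the second 24h library. The region chr1:143319647-143319946, between Kcnt2 and Cdc73, had 11.2 and 7.86 at 0h and 4.83 in the second 6h library alone among later ones. Other losses at 6h were temporary in the lists. A site inside Wwox, a tumour suppressor oxidoreductase gene, had 8.01 and 9.38 at 0h and no peak at 6h, and was called again at 12h (9.51 and 9.98) and 24h (9.13 and 5.57). The site chr12:115507423-115507860 in the immunoglobulin heavy chain locus behaved likewise, at 12.4 and 6.86 in the 0h pair, none at 6h, 6.14 and 7.14 in the 12h pair, and 6.36 and 5.02 in the 24h pair.

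Gained sites included a pair between genes that had a blood gene as the nearer neighbour. The region chr16:55691021-55691350 lay 120 kb from Nfkbiz, which encodes the nuclear NF-kappa-B regulator I-kappa-B-zeta, and 369 kb from Zpld1. It had 6.45 and 7.76 in the 6h pair, 10.6 and 11.3 in the 12h pair, 9.61 in the first 24h library, and no peak at 0h. The region chr4:125893141-125893546 lay 130 kb from Csf3r, which encodes the G-CSF receptor of neutrophil precursors, and 179 kb from Grik3. It had 6.98 and 9.38 at 24h, single peaks of 7.24 at 6h and 9.16 at 12h, and none at 0h. Csf3r itself had no peak in the gene or within 1 kb in any library. Which gene either site acts on, if any, was not tested. Both gained sites had peaks in at least 1 library of each later time.
The site inside Sox5, chr6:144329401-144329743, had 7.96 and 7.55 in the 6h pair, 9.80 and 7.61 in the 12h pair, and 8.58 and 9.46 in the 24h pair. Inside Pde7b, a cAMP phosphodiesterase gene, a site had 6.57 and 10.1 at 24h and 3 peaks of 5.96 to 7.98 at 6h and 12h. The remaining top gain of 24h, between Sdk2 and Rpl38, had 8.40 and 8.31 there and no peak in any other library.

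Gains at 12h were also seen between Tmem38b and Zfp462, with 11.4 and 11.6 in the 12h pair and 6.53 in the second 6h library, and inside Kcnma1, the BK potassium channel gene, with 9.16 and 11.3 in the 12h pair and 6.70 in the first 6h library. Inside Gse1, a chromatin co-repressor gene, a site had 9.95 and 9.63 in the 12h pair, 5.73 and 6.73 in the 6h pair and 6.36 in the first 24h library. At 6h the gains with the highest percentiles lay between Zeb2 and Acvr2a (10.4 and 9.31), Insc and Sox6 (9.01 and 8.71), Sall1 and Tox3 (9.44 and 7.63), and Dact1 and Daam1 (8.77 and 8.15). The gain between Insc and Sox6 had no peak at another time. The other 3 were called in 1 or 2 later libraries.

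**Figure D4:**
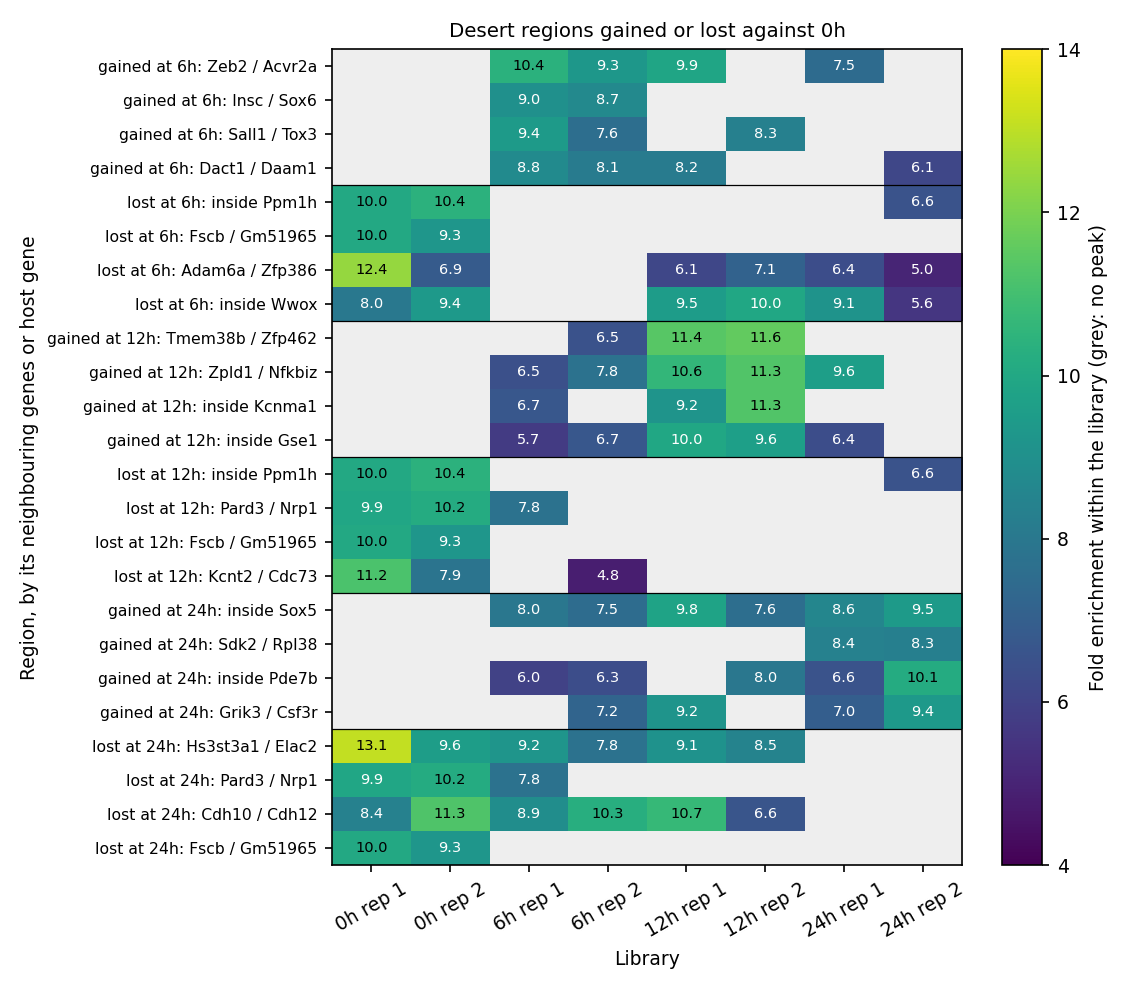
Fold enrichment within each library (colour and number; grey, no peak) of the 4 gained and 4 lost desert regions with the highest mean percentile at 6h, 12h and 24h. Rows are regions named by their neighbours or host gene, and columns are libraries in order of time. Gained rows are grey in both 0h libraries and lost rows are grey in both libraries of the later time.

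Desert regions were unevenly spread. They fell into 603 gaps between genes and 379 host genes, with 112 gaps and 56 genes holding 5 or more. The median distance from one summit to the next desert summit was 26.1 kb, and 1227 regions (44.0%) had another within 20 kb. Linking regions within 20 kb gave 153 clusters of 3 or more. As a background for the counts by gap below, 26.3% and 25.2% of all desert regions were called at 24h, against 57.3% and 35.0% at 0h. At equal length these shares were 36.8% and 36.2% at 24h, against 43.3% and 47.3% at 0h, also without overlap.

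The immunoglobulin heavy chain locus filled the gap between Adam6a and Zfp386, with 57 desert regions. Its gene segments are not entered as protein-coding genes, so the locus counts as a desert. Its regions called numbered 34 and 16 in the 0h pair, 23 and 19 in the 6h pair, 37 and 27 in the 12h pair, and 20 and 12 in the 24h pair, and 3 were called in all 8 libraries. At equal length the numbers were 22 and 16 in the 0h pair, 18 and 14 in the 6h pair, 18 and 15 in the 12h pair, and 19 and 12 in the 24h pair. The T cell receptor alpha locus held 11 desert regions, and all antigen receptor loci together held 72 (2.58%).

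The largest cluster was Firre, a lncRNA gene on X known in mouse cells to bind many CTCF molecules and to contact other chromosomes. Between Olfr1324 and Stk26 it held 16 regions within 85.7 kb, 15 of them inside a lncRNA gene. Regions called numbered 10 and 6 in the 0h pair, 9 and 10 in the 6h pair, 15 and 10 in the 12h pair, and 6 and 8 in the 24h pair, and at equal length 2 and 5, 7 and 5, 5 and 8, and 5 and 8. Counts at equal length were thus not lowest at 24h there, and no test was run for a single locus. The gap between Bcl2l11, the gene of the death inducer Bim, and Spdye4c held 12 regions, 10 of them inside a lncRNA gene. Morrbid starts there, a lncRNA known in mouse myeloid cells to hold down Bcl2l11. A region between the Morrbid start and Spdye4c, chr2:128451531-128451816, was called in all 8 libraries at folds of 7.5 to 11.6, and chr2:128412532-128413265 in each of the 6 libraries before 24h at 4.80 to 10.2 and in neither of 24h.

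Genes of blood transcription factors bordered several of the fullest gaps. Beyond Zeb2, a zinc-finger repressor used in myeloid and lymphoid differentiation, 16 regions were spread over a gap of 3697 kb to Acvr2a. A pair of them was called in all 8 libraries, at 162 kb (7.46 to 11.6) and 1254 kb (10.2 to 12.6) from Zeb2. Called regions numbered 7 and 5 in the 0h pair, 5 and 7 in the 6h pair, 8 and 6 in the 12h pair, and 5 and 2 in the 24h pair. At equal length they numbered 4 and 5, 5 and 5, 5 and 5, and 5 and 2, so 24h and 0h overlapped. Myc, the proliferation factor, bordered 17 desert regions, of which 16 lay between it and Gsdmc. Those 16 numbered 7 and 6 in the 0h pair, 6 and 7 in the 6h pair, 8 and 7 in the 12h pair, and 2 and 4 in the 24h pair. On lists of equal length they numbered 5 and 6 in the 0h pair, 5 and 6 in the 6h pair, 6 and 3 in the 12h pair, and 2 and 4 in the 24h pair, so 24h and 0h did not overlap in either setting, as was the case for all desert regions together. The 1 called in all 8, chr15:63657828-63658497, lay 1668 kb from Myc and 118 kb from Gsdmc, with folds of 5.33 to 8.28.

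Klf4 itself bordered 9 desert regions, all between it and Actl7b in a gap of 1208 kb. They were weak, with no fold above 8.54, and none was called in more than 2 libraries. Regions called numbered 2 and 2 in the 0h pair, 1 and 4 in the 6h pair, 3 and 3 in the 12h pair, and 0 and 0 in the 24h pair, and at equal length 1 and 2, 0 and 3, 2 and 2, and 0 and 0. No desert region beside Klf4 was called at 24h, where 26.3% and 25.2% of all desert regions were. Those shares also count regions called in up to 8 libraries, unlike these 9, so the comparison is not like for like. The region chr4:55730375-55730593, 198 kb from Klf4, was called in both 12h libraries, at 7.47 and 7.25, and in no other.

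Runx1, a core blood transcription factor, bordered 12 regions toward Setd4 and held 1 more inside, with counts of 8 and 2 in the 0h pair, 5 and 6 in the 6h pair, 4 and 4 in the 12h pair, and 5 and 3 in the 24h pair. Id2, an inhibitor of bHLH factors, bordered 11, of which 8 were called in 1 library. Tcf4, an E-protein gene, had 9. Between Nmbr and Cited2, a CBP/p300 partner needed by blood stem cells, 15 regions numbered 9 and 7 in the 0h pair, 6 and 6 in the 6h pair, 8 and 8 in the 12h pair, and 3 and 4 in the 24h pair. At equal length they numbered 6 and 5 in the 0h pair, 5 and 4 in the 6h pair, 4 and 6 in the 12h pair, and 3 and 4 in the 24h pair, again without overlap between 24h and 0h, as for all desert regions.

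Further gaps beside blood or signalling genes differed in how steady they were. Between Rasgrp1, a Ras activator gene of lymphocytes, and Thbs1, thrombospondin, 11 regions were found, 10 of them inside a lncRNA gene. Called regions numbered 7 and 3 in the 0h pair, 5 and 3 in the 6h pair, 6 and 5 in the 12h pair, and 4 and 3 in the 24h pair. At equal length they numbered 6 and 2, 5 and 2, 4 and 4, and 3 and 3, so 24h and 0h overlapped. Between Uaca and Tle3, a Groucho co-repressor gene, 13 regions gave 5 and 3, 5 and 2, 9 and 8, and 1 and 2 called regions in order of time. At equal length these were 2 and 3, 4 and 2, 2 and 2, and 1 and 2, so the higher count at 12h was not seen there. Between Cxcr4 and Thsd7b, 7 regions gave 5 and 4, 3 and 4, 5 and 4, and 3 and 2, with 2 called in all 8. At equal length they gave 3 and 4, 3 and 4, 3 and 3, and 3 and 2, so 24h and 0h overlapped. On either side of Kit lay 4 desert regions, of which 1, toward Pdgfra, was called in all 8.

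Of 39 blood and leukaemia transcription factor genes, 22 had a length or a neighbouring gap of at least 200 kb and so could have a desert region, and 19 of the 22 (86.4%) had one, with a median of 5 regions. Among all protein-coding genes 3089 could, and 1400 of them (45.3%) did, with a median of 0. The list was chosen with results of these data known, and genes were not matched for the length of gene or gap, so the difference is a description. For blood signalling, adhesion and receptor genes the count was 16 of 17, with a median of 4, led by Pde4d (21), Bcl2l11 (12), Dusp6 (10), Kit (8), Ptprc (8) and Cxcr4 (7). Dusp6 encodes a MAP kinase phosphatase, Kit the stem cell factor receptor, Ptprc the leukocyte phosphatase CD45 and Cxcr4 the chemokine receptor of marrow homing. Between Dusp6 and Csl, regions called numbered 9 and 4 in the 0h pair, 6 and 6 in the 6h pair, 6 and 5 in the 12h pair, and 4 and 4 in the 24h pair. At equal length they numbered 7 and 4, 3 and 3, 5 and 2, and 3 and 4, so 24h and 0h overlapped.

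Genes of a developmental list and of an adhesion list had desert regions as well. Developmental transcription factors had one in 25 of 38 cases (65.8%, median 1), led by Foxp1 (18), Zfhx3 (12), Sall3 (10), Sox5 (10), Sall1 (9) and Bcl11b (8). Some members of this list also act in blood cells, such as Foxp1 and Bcl11b in lymphocytes, and Ebf1, counted here among the B lineage markers. Cadherins and synaptic adhesion genes had one in 38 of 44 cases (86.4%, median 2.5), led by Pcdh17 (10), Ptprd (9), Cdh8 (8), Cdh20 (7), Cdh6 (6) and Cdh9 (6). A region between genes counts for both neighbours, as between Cdh10 and Cdh12, so genes of a list can share regions. Cdh6 and Cdh9 had the same counts in every library. Ptprd, a receptor tyrosine phosphatase gene, was looked at for its number of losses, with 3 of the 5 regions inside it lost at 24h, against 7.18% of all desert regions. Called regions numbered 4 and 3 in the 0h pair, 1 and 5 in the 6h pair, 4 and 3 in the 12h pair, and 0 and 1 in the 24h pair.

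Among host genes, Pde4d, a cAMP phosphodiesterase gene of 1302 kb, held most, with 21 regions. They numbered 11 and 2 in the 0h pair, 3 and 6 in the 6h pair, 14 and 10 in the 12h pair, and 6 and 1 in the 24h pair, and none was called in all 8. Foxp1, a forkhead factor gene, followed with 17, at 12 and 6, 5 and 6, 10 and 8, and 8 and 4 in order of time. Lrmda held 14. Arid1b, a SWI/SNF subunit gene, Akap13, a kinase anchor gene, Wwox and Zfhx3 held 11 each, and Fam155a held 9. In Akap13 all 11 lay within 81.5 kb, and 8 were called in 1 library. As deposited, the 2 libraries of 0h differed by 9 regions in Pde4d and by 6 in Foxp1, and by 0 in Akap13. At equal length the 0h pair had 1 and 2 regions in Pde4d, 6 and 6 in Foxp1, and 2 and 4 in Akap13. The 12h pair then had 5 and 4 in Pde4d, so these differences moved with list length.

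**Figure D5:**
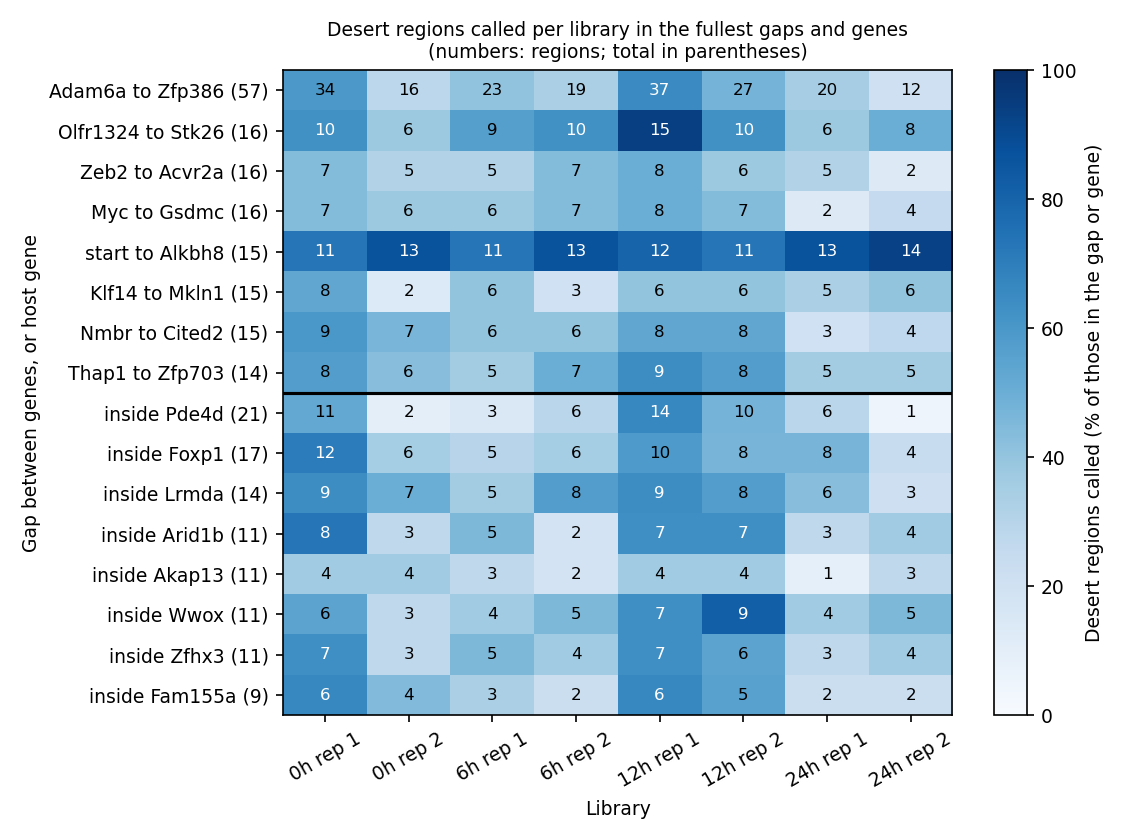
Number of desert regions called in each library (numbers; colour, % of those in the gap or gene) for the 8 gaps and 8 host genes with most desert regions, totals in parentheses. Rows are gaps or genes and columns are libraries in order of time. The gap before Alkbh8, at the start of chromosome 9, stays at 11 to 14 of 15 in all libraries. Whether its regions hold repeats was not tested. The gap from Myc to Gsdmc has 2 and 4 of 16 at 24h and 7 and 6 at 0h.

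The remaining full gaps lay between Thap1 and Zfp703 (14 regions, 3 in all 8), Klf14 and Mkln1 (15, of which 11 inside a lncRNA gene), and before Alkbh8 at the start of chromosome 9 (15, of which 10 in all 8). In the gap between Klf14 and Mkln1, chr6:31126406-31126911 was the 1 region called in all 8, at 5.34 to 11.3. In the gap between Dusp10, a MAP kinase phosphatase gene, and Hlx, a homeobox gene of blood and gut development, 4 of 10 regions were called in all 8. Called regions there numbered 8 and 4 in the 0h pair, 7 and 7 in the 6h pair, 8 and 10 in the 12h pair, and 7 and 6 in the 24h pair.

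A set of 12 desert regions called in all 8 libraries stood apart by mean percentile of fold, averaged over every peak of a region. Their mean percentile of fold was 99.5 or more, while the next desert region had 97.3 and the median of the other all-library desert regions was 58.2. Their folds ran from 14.9 to 58.0. Single folds overlapped, since the highest among the other all-library desert regions was 39.2, in the gap before Alkbh8. The strongest was chr12:3109872-3110105, 137 kb from Rab10, at 41.9 and 58.0 in the 0h pair, 51.9 and 53.0 in the 6h pair, 48.6 and 46.6 in the 12h pair, and 51.7 and 49.6 in the 24h pair. Between genes it was followed by chr18:85697950-85698179 between Fbxo15 and Neto1 (40.5 to 47.7), chr6:3201066-3201611 before Samd9l (37.5 to 43.2), chr18:68692063-68692298 between Mc2r and Tcf4 (38.1 to 42.6), chr8:15519785-15520115 between Myom2 and Csmd1 (33.1 to 36.7) and chr3:5860339-5860826 beyond Pex2 (24.0 to 32.3). Inside a gene the strongest was chr12:78350869-78351169 in Gphn, the gene of the receptor anchor gephyrin, at 39.1 to 45.2. Of the 12, 4 lay in the first 0.5 Mb after position 3000000 of their chromosome, where the assembled sequence begins. Among them were chr9:3000297-3000659 and chr9:3006527-3007261, both in the gap before Alkbh8. Across all distances 39 regions had such percentiles, 24 of them at other distal places and 3 at gene ends. Peaks in repeated sequence were not filtered out, and whether these regions hold repeats was not tested.

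Below these, the desert regions called in all 8 libraries with the highest percentiles were chosen by the same rank after the values had been seen. Between genes they were chr14:104715774-104716079 between Obi1 and Rbm26 (10.9 to 21.6), chr16:3122234-3123324 before Olfr161 (13.5 to 17.2), chr15:57037178-57037561 between Has2, a hyaluronan synthase gene, and Slc22a22 (13.0 to 16.6), chr8:99983757-99984196 between Cdh8 and Cdh11 (12.5 to 15.6) and chr15:68363127-68363853 between Zfat, a zinc-finger gene of blood cell survival in mice, and Khdrbs3 (11.3 to 16.5). Inside genes they lay in Mdga2 (11.3 to 21.5), Atrnl1 (11.3 to 18.4), Maml3, a Notch co-activator gene (11.1 to 15.5), and Galntl6 (8.54 to 14.6). All were called at every time. Desert regions open in all 8 libraries had median folds of 8.26 to 9.96 per library, close to the 8.34 to 10.1 of other distal regions open in all 8, and the difference was not tested.

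LncRNA genes covered desert regions between genes in 404 of 1787 cases (22.6%, interval 20.7% to 24.6%). Other distal regions between genes were covered in 18.7% (17.9% to 19.5%). Inside coding genes, the shares were 6.21% for desert and 6.01% for other distal regions, with overlapping intervals. By chromosome, the desert share of regions ran from 4.26% on chromosome 11 to 14.3% on chromosome 14.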

How the data were processed

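The 8 ATAC-seq peak lists were processed by the authors with BWA, SAMtools and MACS2 on mm10, per the submitters' processing notes; versions, read shifting and duplicate handling were not stated there. Peaks were called per sample. The deposited fold enrichment is a linear ratio, and the deposited −log10 p-value and −log10 q-value (lowest 2.00) are per peak. The deposited integer score was not used. Total reads are unknown, and depth was judged from the local background, recovered from fold and p-value for 99.97% of peaks or more per library within 0.001. Peaks on Y, the mitochondrial chromosome and unplaced scaffolds were left out. Distances used 21523 protein-coding genes of the RefSeq table (GRCm38.p6), which has no exons or strand. Another 108 entries with coordinates before position 3000000 were left out, because they belong to alternate sequences. Trends were tested by exact permutation of times over libraries (2520 arrangements), differences within libraries by exact sign flips (256), both two-sided with Benjamini-Hochberg adjustment. Each p-value reflects library-to-library spread, and that spread may be technical. Regions and genes were named by rank of fold percentile within a list, by gap or host gene with most regions, and by list. Members and lists were chosen with earlier results of these data known. Sequence within desert regions was not analysed here, since no genome was used, and motifs were searched in RefSeq promoter windows. Scripts (Python 3.11.15, numpy 2.4.6, pandas 2.3.3, scipy 1.17.1) were tested on simulated data.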

Additional observations from a re-analysis of the deposited data

Results flagged for a closer look

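Peaks on unplaced or unlocalised scaffolds, which entered no comparison, numbered at least 17 (second 12h library) and at most 24 (first 6h and first 24h libraries) per library, above the 3 that a count of 0 allows. These scaffolds have no position relative to genes, so none of their peaks can be placed in a desert.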

How the results depend on the processing

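Of 306 values from alternatives to 19 results, 245 counted as unchanged. Tests then kept their side of the threshold, counts stayed within 1.5 times, and the share and density ratio stayed within their interval. A change of sign counted as a reversal only where an adjusted p-value passed 0.05, and 0 values reversed so. The trend of the share inside a gene changed sign below that threshold, for example from r = −0.07 to 0.25 at equal length. With peaks of −log10 q of at least 5, the median fold difference passed the threshold (−0.16, adjusted exact p = 0.039) and 44 desert regions were lost at 12h. With lists of equal length, the desert share and the number of desert peaks both fell with time at r = −0.93 (adjusted exact permutation p = 0.00060), 68 regions were gained at 12h, and at 24h 39 were gained and 106 lost. With a limit of more than 200 kb, 1090 regions were in deserts, 77.2% between genes and 103 in all 8 libraries, at a density ratio of 0.159. The desert share then passed the threshold (r = −0.83, adjusted exact permutation p = 0.044), and the −log10 p difference did not (−0.26, adjusted exact p = 0.068). Gains and losses came to 21 and 36 (6h), 49 and 24 (12h), and 10 and 84 (24h). With more than 50 kb the values were 5593 regions, 54.9%, 564 and 0.310, with 113 and 190, 266 and 117, 50 and 363 gained and lost. Requiring a peak to cover at least 50% of a region left 90 regions in all 8 libraries and 131 lost at 24h. Measured from the ends of all annotated genes, non-coding included, 573 regions remained in deserts, with 51 in all 8 libraries, at a ratio of 0.204. Of the 573, 38.0% lay outside every annotated gene, where a non-coding gene also counts as a host. The desert share fell at r = −0.87 (adjusted exact permutation p = 0.024). Leaving out the desert regions of mean percentile 99 or more, added after the data were seen, gave a fold difference of −0.16 (adjusted exact p = 0.031). Leaving out antigen receptor loci, also added then, and using region centres changed no call. Apart from settings whose construction sets the number, the cause of each change was not tested.

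Leaving out 1 library in turn gave r of −0.87 to −0.69 for the desert share, past the threshold without the first 12h library (adjusted exact permutation p = 0.043). The fold difference ran from −0.17 to −0.10, past it without the first 0h or second 12h library (adjusted exact p = 0.047). The density ratio ran from 0.227 to 0.237. Gains ran over 58 to 251 (6h), 131 to 424 (12h) and 21 to 127 (24h), and losses over 93 to 630, 67 to 519 and 199 to 864. Without the first 0h library 190 and 346 were gained and 274 and 215 lost at 6h and 12h. Without the second, losses were 630 and 519, and gains at 6h 100. Without the first or second 6h library 251 or 184 were gained and 163 or 179 lost at 6h. Without the first or second 12h library 336 or 424 were gained and 148 or 106 lost at 12h. By construction, 1 library then stands for its time. Libraries of the same number showed no joint deviation over regions (correlations of −0.037 to 0.011 over 6 pairs of times). Whether the numbers pair libraries cannot be decided from this, since the labels do not say what a number marks. With the replicate number as a block, the desert share kept r = −0.80 (adjusted exact permutation p = 0.10), the number of desert peaks −0.60, the share inside a gene −0.07 and the desert share beyond 1 kb −0.94, and no call changed. Pile-ups of about 10 tags limit what a missing peak says: a site without a call was not detected at this depth.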
